A study of Mus musculus with 2 samples.

Results

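The checkpoint and costimulatory ligands described here are the 6 genes Cd274, Pdcd1lg2, Cd80, Cd86, Lgals9 and Pvr, taken by symbol from the 32285 features listed in both count matrices. All 6 were found in both. The matrices come from single-cell RNA sequencing of J558 tumours, a BALB/c plasmacytoma line of the B lymphocyte lineage, grown under the skin of female BALB/c mice with an intact immune system. On day 6 of oral dosing, 1 library was made from a tumour sample of the vehicle group (0.5% methylcellulose) and 1 from a tumour sample of the group given TAK-931, an inhibitor of the replication kinase CDC7, at 60 mg/kg once daily. Both groups carried the tumour, and with 1 sample in each, treatment and sample cannot be told apart.

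These genes encode proteins that tumour cells and antigen-presenting cells show to T cells. Cd274 (PD-L1) and Pdcd1lg2 (PD-L2) bind the inhibitory receptor PD-1. Cd80 and Cd86 give the costimulatory signal through CD28 and, when bound by CTLA-4, restrain it. Lgals9 encodes galectin-9, a ligand of TIM-3, and Pvr (CD155) binds the activating receptor CD226 and the inhibitory receptors TIGIT and CD96. Interferon gamma raises Cd274 through IRF1 in many cell types, macrophages and endothelium included.

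On the mm10 (GRCm38) assembly, Cd274 (ENSMUSG00000016496) lies at chr19:29367455-29388095 and Pdcd1lg2 (ENSMUSG00000016498) follows on the same plus strand at chr19:29410919-29471161, with 22.8 kb between them. Cd80 (ENSMUSG00000075122, chr16:38455561-38496335, plus strand) and Cd86 (ENSMUSG00000022901, chr16:36603869-36666081, minus strand) share chromosome 16. Lgals9 (ENSMUSG00000001123) lies at chr11:78962974-78984946 and Pvr (ENSMUSG00000040511) at chr7:19903578-19921160, both on the minus strand. All 6 are annotated as protein coding.

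Promoter sequences from RefSeq (GRCm38.p6) matched 4 of the 6 genes: Cd274, Pdcd1lg2, Cd80 and Lgals9. The neighbours Cd274 and Pdcd1lg2 are shown because both were higher in the macrophages of the TAK-931 library, and Lgals9 because it was not. Each sequence runs 5′ to 3′ on the gene's strand and ends at or near the annotated start, and stretches inside annotated exons are left out. For Cd274, where 185 of the 250 bases before its start lie in exons of the divergent gene Plgrkt, the longest stretch outside them is shown, of 47 bases. Capitals mark a motif match.
Cd274, chr19:29367391-29367437, plus strand: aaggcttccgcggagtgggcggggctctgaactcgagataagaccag
Pdcd1lg2, chr19:29410669-29410918, plus strand: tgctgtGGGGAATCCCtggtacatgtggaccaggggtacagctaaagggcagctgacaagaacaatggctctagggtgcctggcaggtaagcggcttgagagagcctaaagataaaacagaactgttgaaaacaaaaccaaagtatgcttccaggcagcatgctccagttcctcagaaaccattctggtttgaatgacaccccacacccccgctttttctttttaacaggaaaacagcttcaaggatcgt
Lgals9, chr11:78984947-78985174, minus strand: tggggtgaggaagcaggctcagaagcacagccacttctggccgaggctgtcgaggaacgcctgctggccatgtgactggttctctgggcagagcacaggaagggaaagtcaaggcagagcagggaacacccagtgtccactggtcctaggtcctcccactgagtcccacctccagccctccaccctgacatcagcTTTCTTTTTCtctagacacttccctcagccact

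Both strands of the 250 bases before each start were searched for 3 motifs. The gamma-activated site TTCNNNGAA occurred in 7.02% of 32841 RefSeq promoters and in none of the 4. The interferon-stimulated response element GAAANNGAAA occurred in 2.98% of promoters and once in Lgals9. The kappa B motif, bound by NF-kB, occurred in 7.25% and once in Pdcd1lg2. These are matches of letters within a short window and no sites of binding.

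The vehicle library held 4565 barcodes and 144767193 counts of unique molecular identifiers (UMIs, each counting 1 transcript), while the one made after TAK-931 had 6558 with 77369283 UMIs. After a filter for over 2000 genes and under 15% mitochondrial UMIs, 3441 and 3488 cells were kept, and 8 barcodes occurred in both libraries. Cells were gated by fixed marker genes and carry the name of the gate they passed, meaning only that they are like that type by these markers. Tumour cells numbered 3000 under vehicle and 99 under TAK-931, monocyte/macrophage cells 199 and 1985, dendritic cells 20 and 86, endothelial cells 80 and 175, and stromal cells 39 and 73. Among the 10 leading genes of each type by fold, 2 to 6 were its own markers and none was a marker of another type.

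UMIs were summed over the cells of a type and scaled to the type's total, as CPM (counts scaled to 1000000 UMIs). With 1 library per treatment there were no replicates. The spread between animals is therefore unknown, no difference was tested, and every 95% interval covers counting error only. A gene was called higher or lower when its CPM differed at least 2-fold and the interval of the ratio left out no change, provided that the 2 sums had 10 or more of its UMIs between them. A gene with 0 UMIs in 1 library counted as past 2-fold, in the shares over all genes too. The 3′ libraries tag 1 end of each transcript, and levels are compared within a gene only.

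Of the 30 pairs of ligand gene and cell type, 26 had enough UMIs. In the TAK-931 library 9 of them were called higher and 0 lower. In macrophages 2 of 6 genes were called higher, where 4.51% of 13454 genes tested were higher and 6.35% lower. None of 6 was called in dendritic cells, where 5.44% of all genes were higher and 3.33% lower. In endothelial cells 2 of 4 were higher (6.51% of all genes higher, 9.24% lower), in stromal cells 3 of 5 (9.16% higher, 6.05% lower), and in tumour cells 2 of 5 (8.68% higher, 2.42% lower). The calls differed in weight. The 4 on Cd274 and Pdcd1lg2 rested on 192 to 8231 UMIs in the TAK-931 library, but on 3 to 180 in the vehicle. The other 5 rested on 11 to 21 UMIs in the TAK-931 library and 0 to 118 in the vehicle. With 3 counts in place of a count of 0, 7 pairs were called, since Cd80 and Cd86 in stromal cells came to 1.72-fold.

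**Figure D1:**
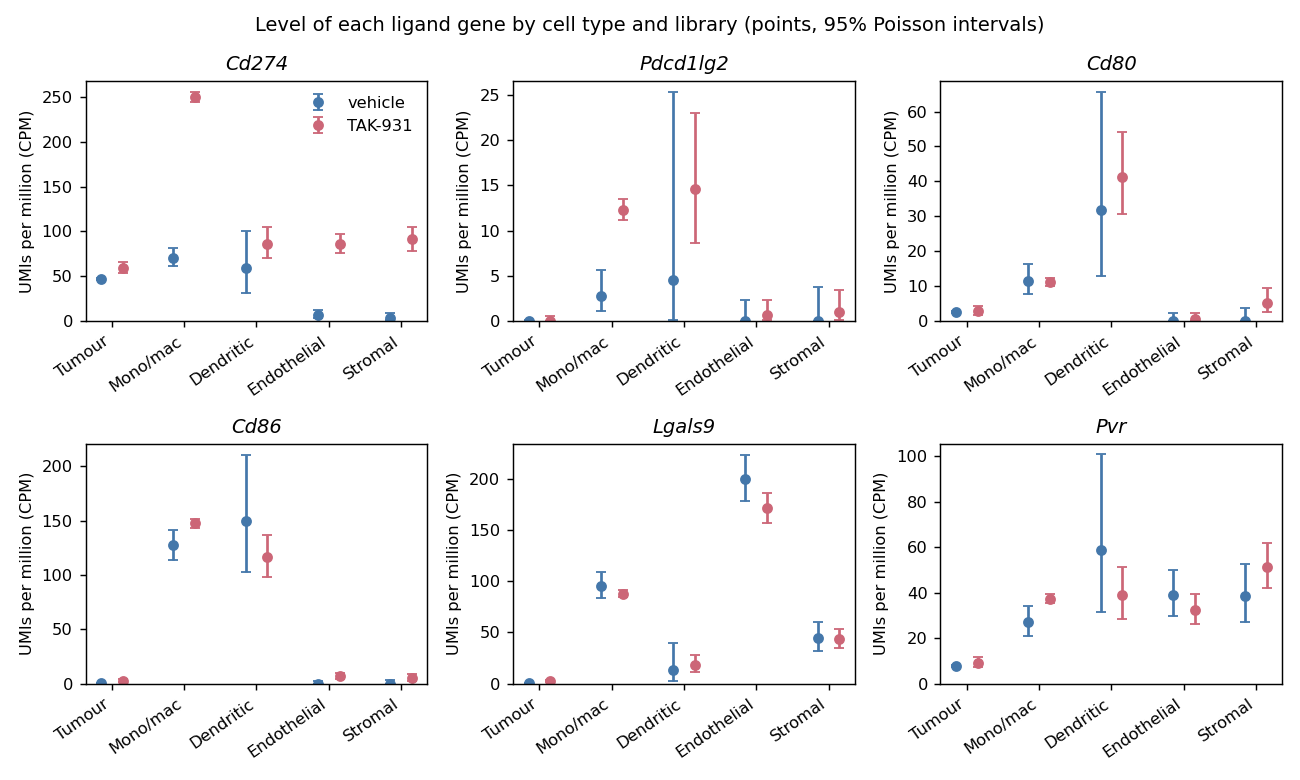
Level of each ligand gene in CPM (vertical axis, from 0, its own scale in each panel) by cell type (horizontal axis) in the vehicle (blue) and TAK-931 (red) libraries. Points are summed UMIs of 1 library and bars are exact 95% Poisson intervals. The Cd274 points separate in macrophages (70.9 and 249.8), endothelial cells (6.38 and 86.2) and stromal cells (3.04 and 91.1), while Lgals9 and Pvr points lie close together.

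Cd274, the PD-1 ligand PD-L1, was higher in the macrophages, endothelial cells and stromal cells of the TAK-931 library. In macrophages its level was 70.9 CPM (95% interval 60.9 to 82.0, 180 UMIs) under vehicle and 249.8 CPM (244 to 255, 8231 UMIs) under TAK-931, 3.52-fold higher (log2 ratio 1.82, 1.60 to 2.04). In endothelial cells, which line the tumour vessels, it was 6.38 CPM (3.06 to 11.7, 10 UMIs) and 86.2 CPM (76.3 to 97.1, 272 UMIs), 13.5-fold higher (log2 ratio 3.76, 2.86 to 4.83). When all kept cells were clustered, the endothelial cells of the 2 libraries fell into different clusters, 74 of 80 vehicle cells into cluster 15 and 174 of 175 TAK-931 cells into cluster 8, so this ratio and every other endothelial ratio given here compare different clusters of the gate. Summed stromal markers in these cells were at 1135 and 133 CPM and tumour markers at 637 and 274 CPM, and their part in the endothelial ratios was not tested. Stromal cells, the fibroblasts and mural cells of the gate, had 3.04 CPM from 3 UMIs and 91.1 CPM from 192 UMIs, a ratio of 30.0 with a counting interval of 10.1 to 147. Its log2 of 4.91 fell to 3.95 when each cell's CPM was averaged, and 1 cell held 34 of the 192 UMIs. Clusters 13 and 16 held the stromal cells of both libraries. Endothelial and stromal cells were thus the types with the lowest Cd274 under vehicle, and under TAK-931 their intervals overlapped that of dendritic cells.

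Tumour cells carried Cd274 in both libraries, at 47.2 CPM (46.0 to 48.3, 6276 UMIs) and 59.6 CPM (54.1 to 65.4, 436 UMIs). The 1.26-fold ratio (1.14 to 1.39) left out no change by counting error and stayed under the 2-fold limit. Dendritic cells had 59.0 CPM from 13 UMIs and 86.5 CPM from 107 UMIs, a ratio of 1.47 (0.822 to 2.84) that does not exclude equal levels. They too differed in cluster. Cluster 9, whose summed markers passed the monocyte/macrophage gate, held 14 of 20 vehicle and 30 of 86 TAK-931 cells. Cluster 17, which passed the dendritic gate, held 6 of 20 and 55 of 86. In order of level, the vehicle library gave macrophages, dendritic, tumour, endothelial and stromal cells. Dendritic cells overlapped both neighbours in that order, as did endothelial and stromal cells each other. In the TAK-931 library macrophages stood above all, stromal, dendritic and endothelial cells overlapped, and tumour cells were lowest.

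The share of cells with a Cd274 UMI was compared after each cell was thinned to 4000 UMIs, which all kept cells of these types reached. It was 24.6% (exact Clopper-Pearson 95% interval 18.8 to 31.2) of vehicle macrophages and 57.7% (55.5 to 59.9) of TAK-931 macrophages. Among endothelial cells 2 of 80 (2.5%) and 38 of 175 (21.7%) had one, and among stromal cells 0 of 39 and 17 of 73 (23.3%). Before thinning the shares were 43.7% and 87.2% in macrophages, 10.0% and 47.4% in endothelial cells and 7.69% and 60.3% in stromal cells. Tumour cells gave 17.3% and 24.2% with overlapping intervals. Thinned to 2000 UMIs, the macrophage shares were 10.1% and 38.0%.

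**Figure D2:**
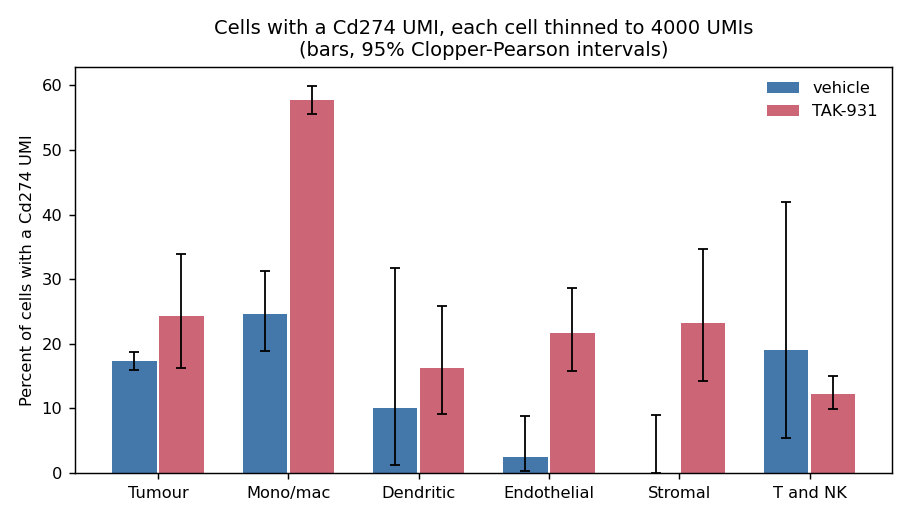
Percent of cells with at least 1 Cd274 UMI after thinning each cell to 4000 UMIs (vertical axis, from 0) by cell type in the vehicle (blue) and TAK-931 (red) libraries, with exact 95% Clopper-Pearson intervals. The macrophage bars stand at 24.6% and 57.7%, the endothelial bars at 2.5% and 21.7%, and T and NK cells, where the level was 32.9 and 33.5 CPM, at 19.0% and 12.3%.

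Macrophage RNA in other cell types was gauged from the 16 markers of the macrophage gate, whose summed level was 19532 and 20140 CPM in macrophages. It was 386 and 517 CPM in endothelial cells, where 3 and 0 of the 16 were at 0, 153 and 485 CPM in stromal cells (6 and 1 at 0), and 43.9 and 303.5 CPM in tumour cells (0 and 0 at 0). At the ratio of Cd274 to these markers seen in TAK-931 macrophages, they would bring 20.2 of the 272 endothelial, 12.7 of the 192 stromal and 27.6 of the 436 tumour Cd274 UMIs. In the 15 TAK-931 endothelial cells with under 100 CPM of macrophage markers, Cd274 was at 93.5 CPM (56.3 to 146, 19 UMIs), against 5.33 CPM in 21 such vehicle cells. Only 4 TAK-931 stromal cells and 5 tumour cells were as low in these markers. The 5 tumour cells had 26.9 CPM (13.9 to 46.9), against 47.3 CPM in 2729 such vehicle cells.

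Within the macrophage gate, the Cd274 level was higher in each sub-type that could be compared. C1q-high cells, with at least 2 of the tissue macrophage genes C1qa, C1qb, C1qc, Mrc1 and Apoe, went from 60.6 CPM (123 cells) to 206.5 CPM (1214 cells), 3.41-fold. Ly6c2 cells, with at least 2 of the inflammatory monocyte genes Ly6c2, Ccr2, Plac8, Chil3 and Vcan, had 74.8 CPM (59 cells) and 335.5 CPM (499 cells), 4.48-fold. Non-classical monocytes, patrolling cells gated by at least 2 of Ace, Treml4, Nr4a1 and Spn, numbered 114 in the TAK-931 library. They had the highest level of the 3 there, 496 CPM (458 to 537). The vehicle library held 1 such cell, so no ratio is given. Macrophages that passed no sub-gate had 163.9 CPM (16 cells) and 289.6 CPM (158 cells), 1.77-fold and under the 2-fold limit.

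Stromal sub-types pointed the same way on few UMIs. In fibroblasts Cd274 had 2 UMIs in 15 vehicle cells and 87 in 36 TAK-931 cells (71.0 CPM, 56.9 to 87.6). Mural cells, the pericytes and smooth muscle around vessels, had 1 UMI in 21 cells and 103 in 34 cells (123 CPM, 100.1 to 149). Of these 103 UMIs, 14 lay in 1 barcode that also carried dendritic markers. Among the named sub-types of TAK-931 dendritic cells, Cd274 ranged from 39.9 CPM in 56 plasmacytoid cells to 275 CPM (181 to 400) in 7 mature cells, the migratory state marked by Ccr7 and Fscn1. Plasmacytoid cells made up 7 of 20 vehicle and 56 of 86 TAK-931 dendritic cells, so the ratio for the whole gate mixes sub-types.

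**Figure D3:**
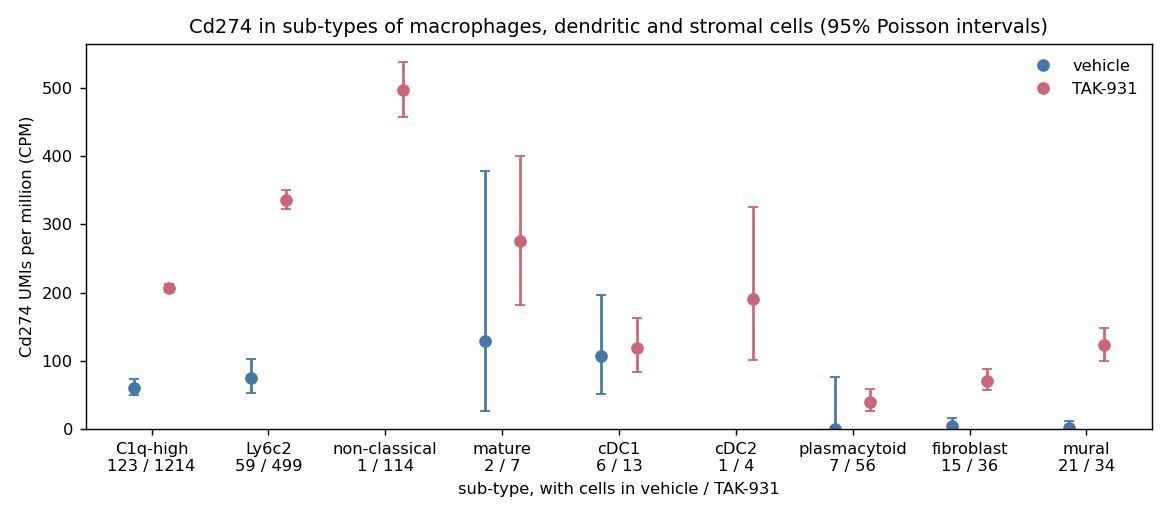
Cd274 level in CPM (vertical axis, from 0) in the sub-types of macrophages, dendritic and stromal cells, with the number of vehicle and TAK-931 cells under each name, vehicle in blue and TAK-931 in red, and exact 95% Poisson intervals. Sub-types with 1 cell are not drawn. C1q-high and Ly6c2 cells separate (60.6 and 206.5, 74.8 and 335.5), and non-classical cells of the TAK-931 library stand highest at 496.

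Pdcd1lg2, the other PD-1 ligand, was scarce in tumour, endothelial and stromal cells, and T and NK cells had more of it (27.0 and 31.6 CPM, 9 and 404 UMIs) than macrophages or dendritic cells as a whole. In macrophages it was at 2.76 CPM (7 UMIs) under vehicle and 12.3 CPM (11.1 to 13.6, 405 UMIs) under TAK-931, 4.46-fold higher (2.14 to 11.2). In the TAK-931 library most of these UMIs came from C1q-high cells, which had 3 UMIs (1.62 CPM) under vehicle and 305 UMIs (13.5 CPM) under TAK-931, and Ly6c2 cells had 4.04 and 10.0 CPM from 2 and 68 UMIs. Dendritic cells had 1 UMI and 18 UMIs (14.6 CPM), of which 14 lay in the 7 mature cells. Tumour cells had 6 UMIs among 3000 vehicle cells and 0 among 99 TAK-931 cells, which allows up to 0.41 CPM at 3 counts. Endothelial and stromal cells had 0 in the vehicle and 2 each in the TAK-931 library, under the minimum.

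Cd80, the CD28 and CTLA-4 ligand with the stronger binding, differed little in the types where it was best measured. Macrophages had 11.4 CPM (29 UMIs) and 11.2 CPM (369 UMIs), a ratio of 0.981 (0.671 to 1.49). Tumour cells had 2.46 and 2.87 CPM (328 and 21 UMIs), and dendritic cells 31.8 and 41.2 CPM (7 and 51 UMIs). These intervals hold both no change and, in dendritic cells, a difference of up to 3.39-fold. The stromal call, 0 UMIs against 11 and so at least 1.72-fold higher with 3 counts as the vehicle floor (counting interval from 1.18-fold), came from 1 barcode that held all 11. That barcode also held 9 of the 11 stromal Cd86 UMIs and 14 of the 192 stromal Cd274 UMIs. It carried UMIs of 5 of 18 dendritic markers, Flt3, Wdfy4, Cd209a, Ccr7 and Cacnb3. Without it neither Cd80 nor Cd86 reached the minimum in stromal cells.

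Cd86 was a gene of macrophages and dendritic cells in both libraries. Macrophages had 127 CPM (114 to 142, 323 UMIs) and 148 CPM (144 to 152, 4869 UMIs), a ratio of 1.16 (1.04 to 1.30). After thinning, 38.2% and 43.0% of macrophages had a Cd86 UMI, against 0 of 80 and 1 of 175 endothelial cells. Dendritic cells had 150 CPM (33 UMIs) and 116 CPM (144 UMIs), 0.777-fold (0.529 to 1.17), with 204 and 279 CPM in the cross-presenting cDC1 cells. Set against Cd274 in the same macrophages, there were 0.557 Cd274 UMIs per Cd86 UMI under vehicle and 1.69 under TAK-931.

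Cd86 was also called higher in tumour cells (0.887 and 2.87 CPM, 118 and 21 UMIs, 3.24-fold, 1.93 to 5.18) and in endothelial cells (0 and 21 UMIs in 8 cells, at least 3.48-fold with 3 counts as the floor, and a counting interval from 2.59-fold). Macrophage markers at their level in the TAK-931 tumour cells would bring 16.3 of the 21 Cd86 UMIs, and in endothelial cells 12 of 21. The top endothelial barcode, with 7 of the 21, carried 11 of the 16 macrophage markers. After subtraction of free RNA the tumour ratio turned to a log2 of -0.51. In endothelial and stromal cells there were 13 and 17.5 Cd274 UMIs per Cd86 UMI in the TAK-931 library, against 1.69 in macrophages.

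Lgals9, the TIM-3 ligand galectin-9, was held at a steady level by endothelial cells and macrophages. Endothelial cells had 200 CPM (178 to 223, 313 UMIs) and 171 CPM (157 to 186, 540 UMIs), 0.857-fold (0.744 to 0.989), a log2 ratio of -0.22 that became 0.03 when scaled by the median gene. Macrophages had 95.7 CPM (243 UMIs) and 88.0 CPM (2898 UMIs), 0.919-fold (0.806 to 1.05). Their sub-types went apart, with C1q-high cells at 97.5 and 78.0 CPM and Ly6c2 cells at 89.0 and 123 CPM. Stromal cells had 44.5 and 43.7 CPM and dendritic cells 13.6 and 18.6 CPM (3 and 23 UMIs). Tumour cells had 0.376 CPM (50 UMIs) and 2.46 CPM (18 UMIs), called 6.55-fold higher (3.59 to 11.4), of which macrophage markers would bring 9.7 of the 18 UMIs. This log2 ratio of 2.71 fell to 1.51 with free RNA subtracted and to 1.79 with clusters in place of gates.

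Pvr, the ligand of CD226, TIGIT and CD96, was called in no type. Macrophages had 27.2 CPM (69 UMIs) and 37.5 CPM (1234 UMIs), 1.38-fold (1.08 to 1.78), with C1q-high cells at 20.03 and 33.2 CPM and Ly6c2 cells at 44.5 and 47.2 CPM. Tumour cells had 7.73 and 9.29 CPM (1028 and 68 UMIs), 1.203-fold (0.927 to 1.54). In endothelial cells Pvr was at 38.9 and 32.3 CPM and in stromal cells at 38.5 and 51.3 CPM, with ratios of 0.831 (0.599 to 1.16) and 1.33 (0.913 to 1.98). Dendritic cells had 59.0 CPM from 13 UMIs and 38.8 CPM from 48 UMIs.

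**Figure D4:**
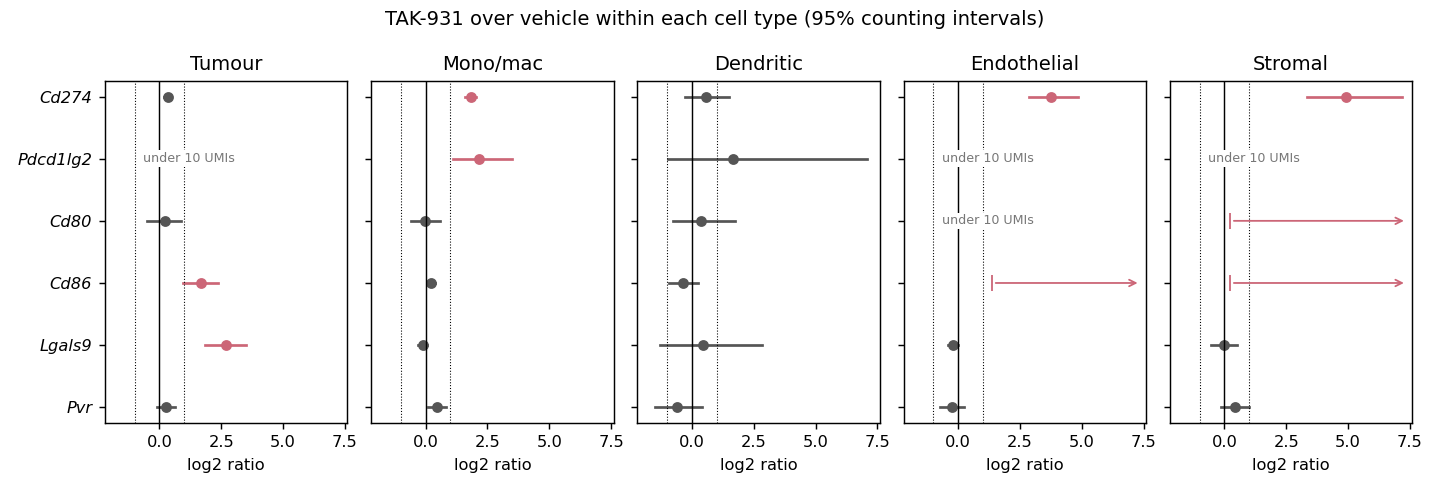
Ratio of the TAK-931 to the vehicle level on a log2 scale (horizontal axis) for each ligand gene (rows) in each cell type (panels), with 95% counting intervals. Red marks pairs called at least 2-fold higher, grey the others, arrows pairs with 0 UMIs in the vehicle (from the lower bound on), and dotted lines 2-fold. Cd274 is red in macrophages (1.82), endothelial (3.76) and stromal cells (4.91), and no interval lies wholly beyond the left dotted line.

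The cell types that supplied the transcripts differed between the libraries. In the vehicle, tumour cells held 95.1% of the Cd274 UMIs of kept cells (94.6 to 95.6) and macrophages 2.73%, with 94.3% and 1.8% of all UMIs. In the TAK-931 library tumour cells held 3.85% (3.51 to 4.22) and macrophages 72.7% (71.9 to 73.6), with 10.6% and 47.5% of all UMIs. The main holder of Pvr passed from tumour cells (80.8%) to macrophages (62.0%), while Cd86 came mostly from macrophages in both (54.1% and 80.5%). Endothelial cells held 40.9% of vehicle Lgals9 UMIs and 11.2% in the TAK-931 library, with 1.11% and 4.55% of all UMIs.

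Over all kept cells Cd274 was at 46.8 and 163 CPM, 3.49-fold (interval of the log2 ratio 1.76 to 1.85). The difference was split into a part from the types' shares of all UMIs, each weighted by its mean level, and a part from levels within types, each weighted by its mean share. T and NK, mixed and remaining cells were counted as types here. Mixed cells held 1.6% and 13.6% of all UMIs, and whether their make-up differed was not tested. For Cd274 44.5% came from the type shares, and for the other genes 72.3% (Pdcd1lg2), 85.1% (Cd80), 89.1% (Cd86), 97.1% (Lgals9) and 77.3% (Pvr). As a share of each gene's own difference, the within-type part was therefore largest for Cd274, 64.6 of 116 CPM, and smallest for Lgals9, 1.88 of 63.8 CPM.

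**Figure D5:**
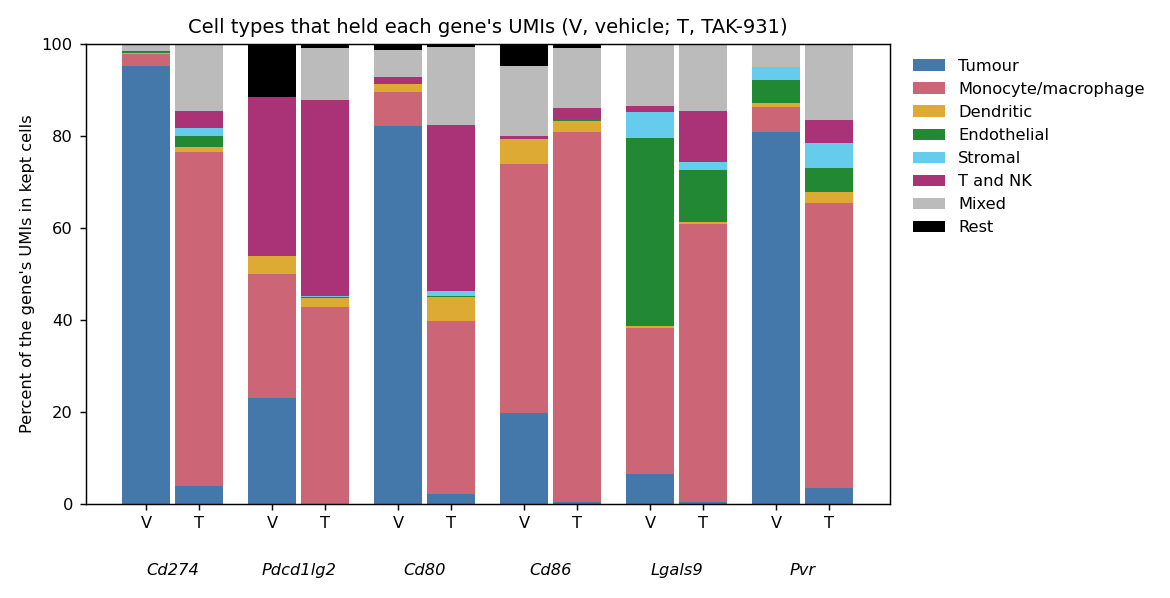
Percent of each gene's UMIs in kept cells (vertical axis, 0 to 100) held by each cell type, for the vehicle (V) and TAK-931 (T) libraries. Mixed are cells whose leading marker list lacked the needed margin over another list, and Rest the remaining cells. Tumour cells hold 95.1% of vehicle Cd274 UMIs, and macrophages 72.7% in the TAK-931 library.

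Further genes of the pathway were taken from lists, and beyond the 3 highest and 3 lowest ratios per type the genes below were named after their values were seen. Among 20 regulators of the ligands, 19 were among the features. In macrophages 4 of 19 were called higher (4.51% of all genes), Irf1 (68.5 and 199 CPM), Socs1, Nlrc5 and Ciita. Only Il10 was lower (97.7 and 42.4 CPM), 1 of 19, beside 6.35% of all genes. In endothelial cells 7 of 18 were higher (6.51% of all genes), with Irf1 at 83.6 and 360 CPM, the STAT inhibitor Socs1 at 42.1 and 182 CPM, the invariant chain Cd74 at 9.57 and 1621 CPM, and the MHC class II activator Ciita at 0 and 17.8 CPM, between the different clusters named above. In stromal cells 6 of 18 were higher (9.16% of all genes). Cd74 had 4 and 753 UMIs, 88.3-fold, while Irf1 was at 35.4 and 410 CPM, 11.6-fold, and Socs1 at 34.4 and 296 CPM. Cmtm6 and Il10 were lower, 2 of 18, beside 6.05% of all genes. Median log2 ratios of the list were 0.47, 0.37 and 0.73 in these 3 types, beside 0.00, -0.15 and -0.03 over all genes tested. In tumour and dendritic cells they were 0.05 and 0.25, beside 0.01 and 0.13.

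In dendritic cells 4 of 17 regulators were called higher (5.44% of all genes), among them Irf1 (31.8 and 133 CPM), Stat3 and Irf8. The interferon gamma receptor chain Ifngr1 was lower (213 and 100.3 CPM), 1 of 17, beside 3.33% of all genes. These and all other dendritic ratios set a vehicle gate with 7 plasmacytoid cells of 20 against one with 56 of 86. In tumour cells 3 of 19 were called higher (8.68% of all genes), Jak1, Irf8 and Cd74. Irf1 was at 11.7 and 18.3 CPM, and Il10, also not called, was at 16.3 and 10.1 CPM. Macrophage markers summed to 43.9 and 303.5 CPM in the same tumour cells, and Irf8 and Cd74 were at 419 and 11716 CPM in TAK-931 macrophages. The part of macrophage RNA in these calls was not tested. Irf1 was called higher in the 3 types in which Cd274 was, and also in dendritic cells, where Cd274 was not. Socs1 and Nlrc5 were called higher in the same 3 types as Cd274. Whether any of these genes had a part in the Cd274 levels was not tested. Cmtm6, whose product keeps PD-L1 protein at the cell surface, was called lower in endothelial cells (47.2 and 21.9 CPM), 1 of 18 regulators, beside 9.24% of all genes. It was also called lower in stromal cells (19.2 and 8.54 CPM, 19 and 18 UMIs), a call lost at a minimum of 50 UMIs. It was level in macrophages (26.0 and 27.6 CPM). Of the neighbours on chromosome 19, Ric1 was 4.28-fold higher in macrophages (20.1 and 85.9 CPM), and Plgrkt was called in no type.

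Of 26 further ligands, 4 of 20 tested in macrophages were higher (4.51% of all genes), Nectin1, Ceacam1, Fgl2 and Cd200 (0 and 133 UMIs). Only Cd276, the B7-H3 ligand, was lower (14.2 and 1.97 CPM), 1 of 20, beside 6.35% of all genes. In endothelial cells 4 of 15 were higher (6.51% of all genes), with Ido1, the tryptophan-degrading enzyme, at 0 and 51 UMIs and Fgl2 at 0 and 63 UMIs, and 4 were lower (9.24% of all genes). These were Cd276 (224 and 46.0 CPM), Nectin3 (43.4 and 7.61 CPM), Nectin2 and the adenosine-forming enzyme Nt5e (213 and 60.9 CPM). In stromal cells 2 of 15 were higher and 3 lower, beside 9.16% and 6.05% of all genes. Nectin2 was at 75.9 and 36.1 CPM, Nt5e at 66.8 and 28.9 CPM, and Cd200, not called, at 41.5 and 22.3 CPM. In dendritic cells 1 of 14 was higher, Cd200 (31.8 and 113 CPM), beside 5.44% of all genes. None was called lower, with Cd40 at 72.6 and 48.5 CPM. The counts of higher genes in stromal and dendritic cells lie near these shares. In tumour cells 6 of 15 were higher (8.68% of all genes), led by Fgl2 (17 and 47 UMIs) and Lgals3 (283 and 254 UMIs), beside the macrophage markers given above.

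The receptors of the ligands are mainly genes of T and NK cells, whose 13 markers summed to 14.2 and 93.1 CPM in tumour cells and 17.7 and 49.5 CPM in macrophages. In tumour cells 5 of 6 receptors tested were called higher (8.68% of all genes). Cd28, which plasma cells and plasmacytomas also carry, had 4819 UMIs (36.2 CPM) under vehicle and 796 (109 CPM) under TAK-931, and Pdcd1 had 44 and 21 UMIs. In macrophages 3 of 7 were called higher (4.51% of all genes). Of these, Cd226 had 2 and 171 UMIs, while Cd28 (0 and 76 UMIs) and Pdcd1 (0 and 51 UMIs) came to 1.95-fold and 1.31-fold with 3 counts as the vehicle floor, under the 2-fold limit. The part of T cell RNA in these calls was not tested. Havcr2, which encodes TIM-3 and is also a gene of myeloid cells, was at 108 and 54.6 CPM in macrophages, just short of the 2-fold limit, and lower in dendritic cells (136 and 54.2 CPM). It was called higher in tumour cells (36 and 12 UMIs, 6.06-fold) and in endothelial cells (0 and 10 UMIs, 1.66-fold with 3 counts as the floor), where macrophage markers were also higher. Cd28 was called higher in dendritic cells (2 and 45 UMIs, 4.01-fold). Of 4 receptors tested there, 1 was thus higher and 1 lower, beside 5.44% and 3.33% of all genes. In endothelial cells Havcr2 was 1 of 2 tested, beside 6.51% of all genes higher.

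Over the 10 sums of 5 types in 2 libraries, the genes whose log2(CPM + 5) was most like Cd274 were Clk4 (Pearson r = 0.91), Ipo13 (0.89) and Plekhm1 (0.88). For Pdcd1lg2 they were Mef2d, Cd180 and Dhx40 (0.96 to 0.95), for Cd80 Il7r, Akna and Ncf1 (all 0.97), for Cd86 Adam8, Lat2 and Bcl2a1a (1.00 to 0.99), for Lgals9 Acvrl1, Rreb1 and Ripk3 (0.98 to 0.97), and for Pvr Dyrk2, Med13l and Cep290 (0.98 to 0.97). These are descriptions over 10 points that share their libraries, taken as the highest of 12689 genes.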

How the data were processed

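The authors dissociated the tumours, made droplet 3′ libraries and processed them with Cell Ranger 6.0.0 on mm10, per the labels' processing notes (the study's methods name a human build). The deposited matrices hold raw UMI counts per gene and barcode, with no normalization. No barcode had fewer than 501 (vehicle) or 500 (TAK-931) UMIs, so droplets with fewer had already been left out. Kept cells had over 2000 genes and under 15% mitochondrial UMIs, as in the study's methods.

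A cell was gated to the type with the largest share of its markers at 100 CPM or more, with at least 3 such markers and 2 times the share of every other of 9 lists. The dendritic list used the best of its 4 sub-lists and had only to exceed the tumour and macrophage lists. Sub-types needed 2 markers. Cells with at least 3 markers of the leading list but without this margin over every other list (77 vehicle, 365 TAK-931) were left out as mixed. The other list needed no 3 markers of its own. Mixed cells may hold doublets, and no doublet caller was run. The gate's scoring rule was set after several versions had been seen, judged on cell counts. The ligand genes, pathway lists and markers were chosen with earlier results of these data known. The values of 1 of the 19 regulators among the features are not reported here.

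Counts were summed per type and library. CPM carry exact Poisson intervals, ratios exact conditional binomial intervals and shares Clopper-Pearson intervals, all at 95%, with a floor of 3 counts for a count of 0. Named genes were the 6 ligands, the 3 most like each over sums with at least 50 UMIs, and the 3 highest and lowest pathway ratios per type at 50 UMIs or more. Gene positions came from GENCODE M21 and promoters from RefSeq. The calling step was tested on simulated data. Tools were scipy 1.17.1, numpy 2.4.6 and pandas 2.3.3 under python 3.11.15, with scanpy 1.11.5 and leidenalg 0.10.2 for clusters and matplotlib 3.10.9 for plots. Alternatives were other cell filters, gates, clusters, scalings, thinning depths and subtraction of free RNA.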

Additional observations from a re-analysis of the deposited data

Results flagged for a closer look

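Barcodes with over 500 and at most 2000 genes enter no comparison above, and 5 signals among them were higher in the TAK-931 than in the vehicle library, with a counting interval that left out no change. Cd274 was at 371 CPM in 28 neutrophil barcodes of the vehicle (19 UMIs) and 1069 CPM in 53 of the TAK-931 library (159 UMIs), above the 249.8 CPM of the kept macrophages. Neutrophils have few transcripts, and the filter on genes kept 0 and 1 of them. Cd80 was at 0 UMIs and 114 CPM (17 UMIs) in the same neutrophil barcodes, at least 1.95-fold higher with 3 counts as the floor and so not shown to pass 2-fold. In monocyte/macrophage barcodes with few genes Cd274 was at 56.2 and 192 CPM (84 and 342 barcodes), 3.42-fold, beside 3.52-fold in kept cells. In dendritic barcodes with few genes Cd274 was at 40.9 and 515 CPM and Cd86 at 102 and 368 CPM, in 9 and 8 barcodes (2 and 21 UMIs of Cd274, 5 and 15 of Cd86). In the other direction, Cd80 (21.9 and 4.31 CPM, 7 and 5 UMIs) and Pvr (65.6 and 24.98 CPM, 21 and 29 UMIs) were lower in these macrophage barcodes.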

How the results depend on the processing

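The 23 log2 ratios with UMIs in both libraries were recomputed under up to 13 alternatives, of which leaving out the TAK-931 cell with most UMIs of a gene and naming clusters by their largest marker share were chosen after seeing the data. Of 289 values, 280 stayed inside the interval reported and 269 kept their sign. Cd274 stayed called in macrophages (1.74 to 1.92) under all of them, and in endothelial (3.39 to 4.01) and stromal cells (3.95 to 5.27) under all that gave a value. With clusters in place of gates, the planned naming gave no type to the clusters that held most TAK-931 endothelial and stromal cells. Then 4 pairs were called higher in place of 9. None was endothelial or stromal, so both Cd274 calls there were lost. With clusters named by the largest marker share, 9 were called. The tumour Cd86 call turned to -0.51 with free RNA subtracted, and tumour Lgals9 fell from 2.71 to 1.51, and to 1.79 with clusters. Without the top cell 7 pairs were called, the stromal Cd80 and Cd86 calls being lost, as they were with 3 counts in place of a count of 0 (7 pairs, also chosen after seeing the data). Cd274 in dendritic cells ranged from -0.17 to 0.85. With over 500 genes per cell, tumour cells held 94.1% of vehicle Cd274 UMIs and macrophages 70.8% in the TAK-931 library. Thinning to 2000 UMIs or none put 14 of 20 recomputed shares of cells with a Cd274 UMI outside the interval reported, since these follow depth. No paired analysis was possible because each group had 1 library. The 20 vehicle dendritic and 39 vehicle stromal cells limit what their ratios can show.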

Other observations

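T and NK cells, which receive the signals of these ligands, carried several of the genes themselves, most of them known on activated T cells. In the 684 T and NK cells of the TAK-931 library Cd274 was at 33.5 CPM (30.4 to 36.8), Pdcd1lg2 at 31.6 CPM (404 UMIs), Cd80 at 27.6 CPM (352 UMIs) and Lgals9 at 41.6 CPM (531 UMIs). They held 42.7% of the Pdcd1lg2 UMIs and 36.0% of the Cd80 UMIs in the kept cells of that library, with 18.4% of all UMIs in those cells. Macrophage markers, at 490 CPM in these cells, would bring 77.7 of the 428 Cd274 UMIs, 3.82 of the 404 Pdcd1lg2 UMIs, 3.48 of the 352 Cd80 UMIs, 27.4 of the 531 Lgals9 UMIs and 46 of the 139 Cd86 UMIs. The 21 vehicle T and NK cells had 11 Cd274 UMIs (32.9 CPM, 16.4 to 58.9), 9 of Pdcd1lg2 and 6 of Cd80, and none of the 6 genes was called there.

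Mature dendritic cells were few, 2 and 7, yet the 7 of the TAK-931 library held Cd274 (275 CPM), Pdcd1lg2 (143 CPM, 78.0 to 239), Cd80 (143 CPM) and Cd86 (204 CPM) together, and 0 Lgals9 UMIs. The 56 plasmacytoid cells had 0 Pdcd1lg2, 1 Cd80 and 12 Cd86 UMIs.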
